A study of Mus musculus with 10 samples.

Results

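Expression of 8 genes of glucose uptake and glycolysis was examined in mouse liver: Slc2a2, Gckr, Pfkl, Pfkfb1, Pfkfb3, Gapdh, Pgk1 and Eno1. They were picked by symbol, and all 8 were among the 24421 genes listed. After a filter on low counts 7 of them remained among the 11092 genes tested, and Eno1 did not. Liver RNA was sequenced from 10 male wild-type C57BL/6 mice (C57BL/6 J in the study's text) with free access to food, 21 weeks old per the labels, whereas the study's text gives a slightly lower age. The Chow group (n = 5) received standard chow, and the TM5614 group (n = 5) received the same chow carrying TM5614, an orally active inhibitor of plasminogen activator inhibitor 1 (PAI-1), at 20 mg/kg/day for 10 days. The study describes the controls as age-matched littermates, and the labels give each library a mouse number of its own. The question was how the inhibitor altered hepatic gene expression, and here it is put to the carrier and the enzymes through which the hepatocyte takes up and breaks down glucose.

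Glucose crosses the hepatocyte membrane in both directions through a carrier of low affinity, GLUT2, and is then phosphorylated by glucokinase, which the glucokinase regulatory protein holds inactive in the nucleus between meals. The committed step of glycolysis is catalysed by phosphofructokinase, and its strongest activator, fructose 2,6-bisphosphate, is made and removed by the bifunctional PFKFB enzymes. Glyceraldehyde-3-phosphate dehydrogenase, phosphoglycerate kinase and enolase work further down, in steps that also run in reverse when the liver makes glucose.

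Levels are given as reads per gene scaled to a common library size by TMM (CPM, as edgeR computes them), and totals ranged from 6398335 to 10874955 counts per library. Chow replicate 2 stood apart. GC content and gene length explained 50.6% of the deviation of its genes from their medians over all libraries, against 0.738% to 4.65% in the other Chow libraries and 1.04% to 13.1% in the TM5614 libraries. TM5614 replicate 2 carried transcripts of skeletal muscle: a list of 12 muscle genes, among them the actin and myosins of the sarcomere, summed to 4493 CPM there, against 14.8 to 91.3 CPM in the other TM5614 libraries and 9.74 to 34.9 CPM in the Chow libraries. TM5614 replicate 3 held some at a lower level, with Acta1 at 22.2 CPM against at most 0.0965 CPM in Chow. Of the cell type markers, the summed levels of hepatocyte genes lay between 145317 and 164084 CPM in Chow and between 121084 and 141753 CPM in TM5614, with none of the 10 called, and all 9 Kupffer cell genes had lower estimates with none called (median log2 fold change −0.50). Alb alone averaged 87717.6 CPM in Chow and 79101.5 CPM in TM5614. Estimates were higher for 6 of 8 liver endothelium genes, 6 of 8 stellate cell genes and all 3 tested cholangiocyte genes, with none called. In a bulk sample fewer cells of a type and less RNA per cell cannot be told apart. The part of these features in the results below was not tested except where a value without a library, or after correction for GC content and length, is given.

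None of the 7 tested genes passed the threshold of 0.05 for an adjusted p (edgeR's quasi-likelihood test, Benjamini-Hochberg adjustment over all genes tested), where 4.50% of all genes did. Slc2a2, Gckr and Gapdh had an unadjusted p under 0.05, 3 of 7 genes, as did 20.4% of all genes tested. DESeq2 also called none, while limma-voom with sample quality weights called 2, Slc2a2 and Gapdh, against 12.5% of all genes. Of the 7 estimates 6 were lower with TM5614, with a median log2 fold change of −0.39 beside 0.01 over all genes. The groups were separate in CPM for 1 gene, Gapdh, and such separation was seen in 8.93% of genes. Without Chow replicate 2 it was seen for Gapdh and Slc2a2, and in 12.1% of genes. Without TM5614 replicate 2 edgeR again called none of the 7, and the estimates lay between −0.65 for Pfkfb3 and 0.25 for Pfkfb1.

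**Figure D1:**
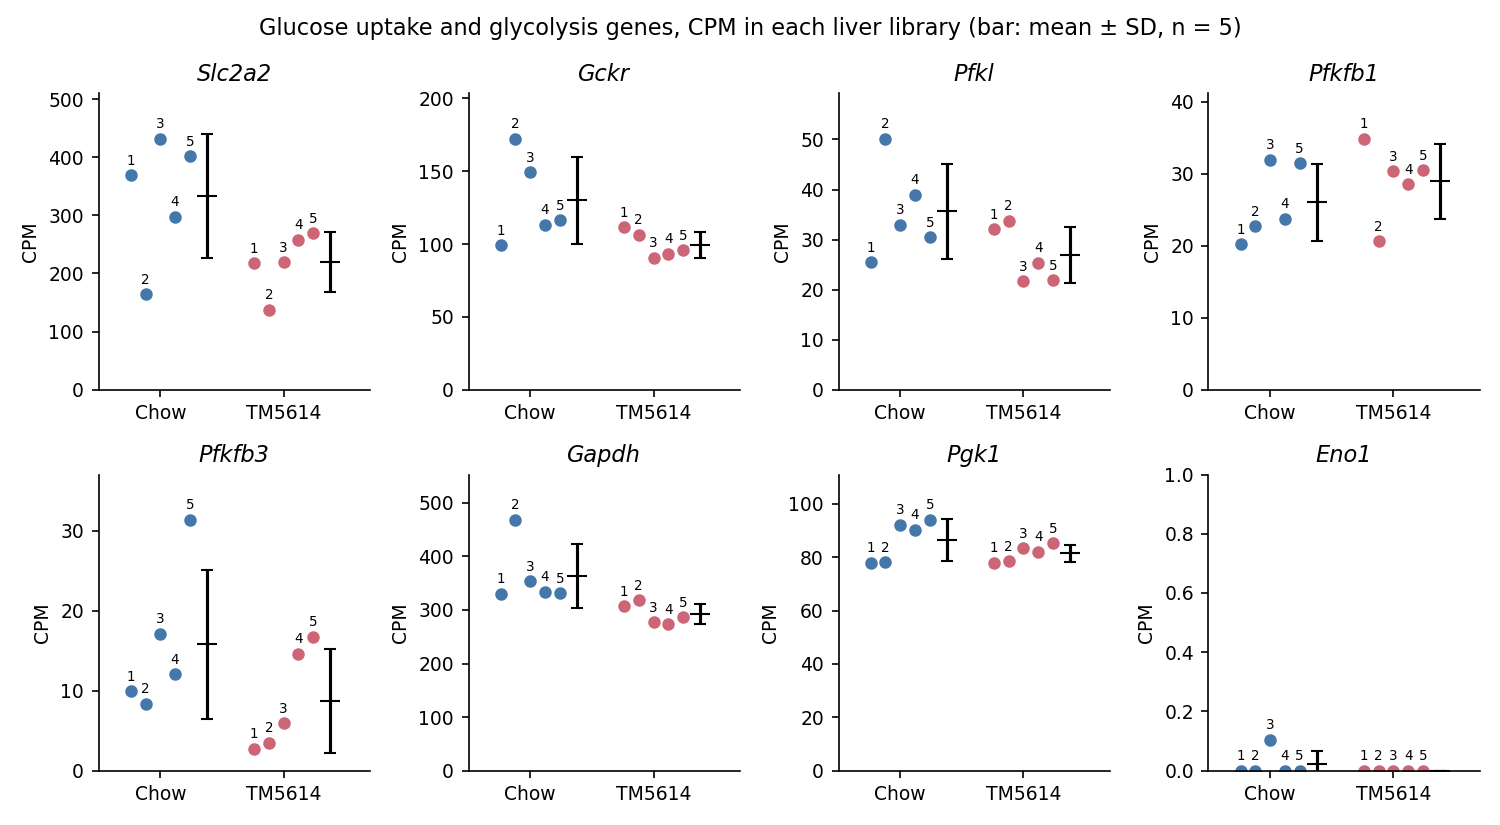
CPM of each of the 8 genes (y axis, from 0) in every Chow and TM5614 library (points, numbered by replicate), with the mean ± SD of 5 libraries beside them and lower bar ends that would pass below 0 left off. All TM5614 points of Gapdh lie below all Chow points, those of Slc2a2 lie below all Chow points but that of replicate 2, and Eno1 has 1 count in 1 library.

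Slc2a2 encodes GLUT2, the principal glucose carrier of hepatocytes (GRCm38 chr3:28697903-28731359, plus strand). It was at 369, 165, 432, 298 and 402 CPM in Chow replicates 1 to 5 and at 218, 138, 219, 258 and 269 CPM in TM5614 replicates 1 to 5. Chow replicate 2 was the 1 Chow library inside the TM5614 range, and the other 4 lay above it. The means were 333 ± 107 CPM (SD, n = 5) in Chow and 221 ± 51.7 CPM (SD, n = 5) in TM5614, and the estimated log2 fold change, −0.60 ± 0.25 (SE), did not pass (edgeR adjusted p = 0.203). Without Chow replicate 2 the Chow mean was 375 ± 57.6 CPM (SD, n = 4), and Slc2a2 fell by 0.77 on the log2 scale (edgeR adjusted p = 0.0157), in a fit that called 9.24% of all genes. After correction of every library for GC content and length it fell by 0.74 (edgeR adjusted p = 0.0272), in a fit that called 7.01% of genes, and with voom by 0.71 (adjusted p = 0.00974). Leaving out any 1 of the other 9 libraries gave no call, with an adjusted p of up to 0.354 over all leave-outs. The transcript of Slc2a2 had the lowest GC content of the 8 genes, 41.7%.

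Slc2a2 held most of the sugar carrier transcripts of the SLC2A family, compared per kilobase of gene length. Its share of the length-scaled counts of 11 members was 75.1% ± 9.75 (SD, n = 5) in Chow and 75.7% ± 6.87 (SD, n = 5) in TM5614. The next was Slc2a9, a carrier of urate, with 12.6% and 10.2%. TM5614 replicate 2 had the lowest Slc2a2 share of its group, 63.9%, and the highest share of Slc2a4, the insulin-responsive carrier of muscle and fat, 4.01% against at most 0.15% in the other TM5614 libraries.

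Gckr, which encodes the glucokinase regulatory protein (chr5:31297443-31327314, plus strand), was at 99.1, 172, 149, 113 and 117 CPM in the Chow libraries. In TM5614 it was at 112, 107, 90.6, 93.2 and 96.0 CPM. The groups overlapped, because Chow replicate 1 lay below TM5614 replicates 1 and 2, and the TM5614 libraries spread much less. Mean levels were 130.1 ± 29.9 CPM (SD, n = 5) and 99.6 ± 9.03 CPM (SD, n = 5), and on the log2 scale the difference was −0.39 ± 0.15 (SE; adjusted p = 0.179 by edgeR). The estimate ranged from −0.48 to −0.27 as single libraries were left out, and no setting tried called it.

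Pfkl encodes the liver subunit of phosphofructokinase (chr10:77986947-78010083, minus strand). The Chow libraries gave 25.5, 50.2, 33.0, 39.0 and 30.5 CPM, and the TM5614 libraries 32.02, 33.7, 21.7, 25.4 and 21.9 CPM. Chow replicate 2 was the highest of the 10 libraries, and Chow replicates 1, 3 and 5 lay within the TM5614 range. On the log2 scale the estimate was −0.41 ± 0.19 (SE; adjusted p = 0.264 by edgeR), and it was −0.26 without Chow replicate 2 (edgeR adjusted p = 0.355). Pfkl had a GC content of 57.1%, near that of Eno1 and above those of the other 6 genes.

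Among the 3 phosphofructokinase genes Pfkl and Pfkm, the muscle form, held nearly all length-scaled counts. Pfkl made up 53.4% ± 4.18 (SD, n = 5) in Chow, with 48.2% to 57.5% across libraries. In 4 TM5614 libraries the Pfkl share lay within 50.8% to 55.9%. In TM5614 replicate 2, the library with the most muscle transcripts, it was 27.4%, and Pfkm made up 69.3% there against 40.9% to 46.7% in the other TM5614 libraries. The Pfkl level itself was no lower in that library, at 33.7 CPM the highest of its group.

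Pfkfb1 and Pfkfb3 encode isoenzymes that make and break down fructose 2,6-bisphosphate, the former being the form of liver and muscle and the latter an inducible form with strong kinase activity. Pfkfb1 (chrX:150588229-150643878, plus strand) was at 20.3, 22.8, 31.9, 23.8 and 31.5 CPM in Chow and at 34.9, 20.6, 30.4, 28.6 and 30.5 CPM in TM5614. It was the 1 tested gene of the 8 with a higher estimate, and its groups overlapped over most of their range (log2 fold change 0.15 ± 0.17 SE, edgeR adjusted p = 0.628). Its position overlaps Apex2 on the opposite strand, whose counts summed to 543 over all libraries, and whether reads were counted by strand is not given in the sources used here.

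Pfkfb3 (chr2:11471433-11554077, minus strand) was the most variable of the 7. It stood at 9.95, 8.39, 17.1, 12.04 and 31.4 CPM in Chow and at 2.73, 3.50, 5.96, 14.6 and 16.7 CPM in TM5614, on counts of 76 to 341 and 19 to 163 per library. TM5614 replicates 1 to 3 lay below every Chow library, whereas replicates 4 and 5 lay within the Chow range. The means of 15.8 ± 9.32 CPM (SD, n = 5) and 8.71 ± 6.51 CPM (SD, n = 5) gave the largest difference of the 7 and also the largest error, −0.84 ± 0.50 on the log2 scale (SE; adjusted p = 0.363 by edgeR). The estimate moved between −0.43 without Chow replicate 5 and −1.22 without TM5614 replicate 5, and was not called in either.

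The ratio of the 2 isoenzymes within a library does not depend on how libraries are scaled. The log2 CPM of Pfkfb3 minus that of Pfkfb1 was −1.01, −1.42, −0.89, −0.97 and −0.00 in Chow and −3.57, −2.48, −2.31, −0.95 and −0.86 in TM5614. As with Pfkfb3 alone, TM5614 replicates 1 to 3 were below all Chow libraries and the other two were not. The mean difference between groups was −1.18. It did not pass the threshold of 0.05 (exact two-sided permutation test over all divisions of the libraries into 5 and 5, p = 0.111, smallest possible 0.00794). Without TM5614 replicate 5 it was −1.47 (exact permutation p = 0.0317). Per kilobase, Pfkfb1 held 70.6% of the PFKFB counts in Chow and 74.1% in TM5614, and Pfkfb3 held 13.1% ± 4.29 and 7.05% ± 4.68 (SD, n = 5). Pfkfb2, the third isoenzyme, differed by 0.24 ± 0.30 on the log2 scale (SE; adjusted p = 0.667 by edgeR).

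Promoter windows of 300 bases, from 250 before to 50 after each start site, were taken from RefSeq on GRCm38.p6 for all 8 genes, some of which have several starts. Both strands were searched for the core letters of the element bound by hypoxia-inducible factors, written ACGTG in one form and GCGTG in another. An E-box, CACGTG, which holds the first of these, was searched as well. Of 32851 windows of that length over all genes, 19.6% held the first form of the core, 32.4% the second and 7.15% the E-box. The first form was found in windows of Pfkfb3, Gapdh and Pgk1, and the second in windows of Gckr, Pfkl, Pfkfb1, Pfkfb3, Gapdh and Eno1. The shares above are per window, whereas a gene is named here if any of its windows matched. The number of genes named therefore cannot be set beside those shares.

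The window of Pfkfb3 at chr2:11502041-11502340 (minus strand) is shown because it was the only window of the 8 genes with the E-box. That of Pgk1 at chrX:106186850-106187149 (plus strand) is shown as one with the first form of the core whose gene differed least between the groups. That of Slc2a2 at chr3:28697653-28697952 (plus strand) is shown as one with none of the motifs. Capitals mark a motif, and a match is only a match of letters.

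Pfkfb3: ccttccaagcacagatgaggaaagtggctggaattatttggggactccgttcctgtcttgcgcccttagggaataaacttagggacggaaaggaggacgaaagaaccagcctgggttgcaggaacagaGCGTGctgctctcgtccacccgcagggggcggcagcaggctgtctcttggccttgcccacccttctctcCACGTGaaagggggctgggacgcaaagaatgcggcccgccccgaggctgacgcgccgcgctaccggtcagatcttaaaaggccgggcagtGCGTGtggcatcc

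Pgk1: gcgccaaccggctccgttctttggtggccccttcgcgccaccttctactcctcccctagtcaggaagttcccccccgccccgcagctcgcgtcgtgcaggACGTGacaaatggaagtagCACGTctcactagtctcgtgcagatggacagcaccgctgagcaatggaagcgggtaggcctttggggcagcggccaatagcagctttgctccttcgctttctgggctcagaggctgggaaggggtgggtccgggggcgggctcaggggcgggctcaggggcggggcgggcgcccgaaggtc

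Slc2a2: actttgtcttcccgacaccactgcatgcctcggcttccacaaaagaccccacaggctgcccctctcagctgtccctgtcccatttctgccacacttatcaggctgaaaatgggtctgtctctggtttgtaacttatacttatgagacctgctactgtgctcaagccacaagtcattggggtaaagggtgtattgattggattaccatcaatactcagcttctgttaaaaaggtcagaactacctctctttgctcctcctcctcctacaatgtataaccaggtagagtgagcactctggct

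Gapdh encodes the dehydrogenase that oxidises glyceraldehyde 3-phosphate (chr6:125161715-125166467, minus strand). Its levels were 330.0, 469, 354, 334 and 331 CPM in Chow and 307, 318, 277, 274 and 286 CPM in TM5614. Every TM5614 library lay below every Chow library, and Chow replicate 2 lay far above the other 4 Chow libraries. The means were 364 ± 59.5 CPM and 293 ± 19.3 CPM (SD, 5 libraries each), and the estimate was −0.31 ± 0.12 on the log2 scale (SE; adjusted p = 0.167 by edgeR). Without Chow replicate 2 the Chow mean was 337 ± 11.2 CPM (SD, n = 4) and the estimate was −0.21 (edgeR adjusted p = 0.0913). It was −0.17 after correction for GC content and length (edgeR adjusted p = 0.15), and −0.24 with voom, which called it (adjusted p = 0.047).

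**Figure D2:**
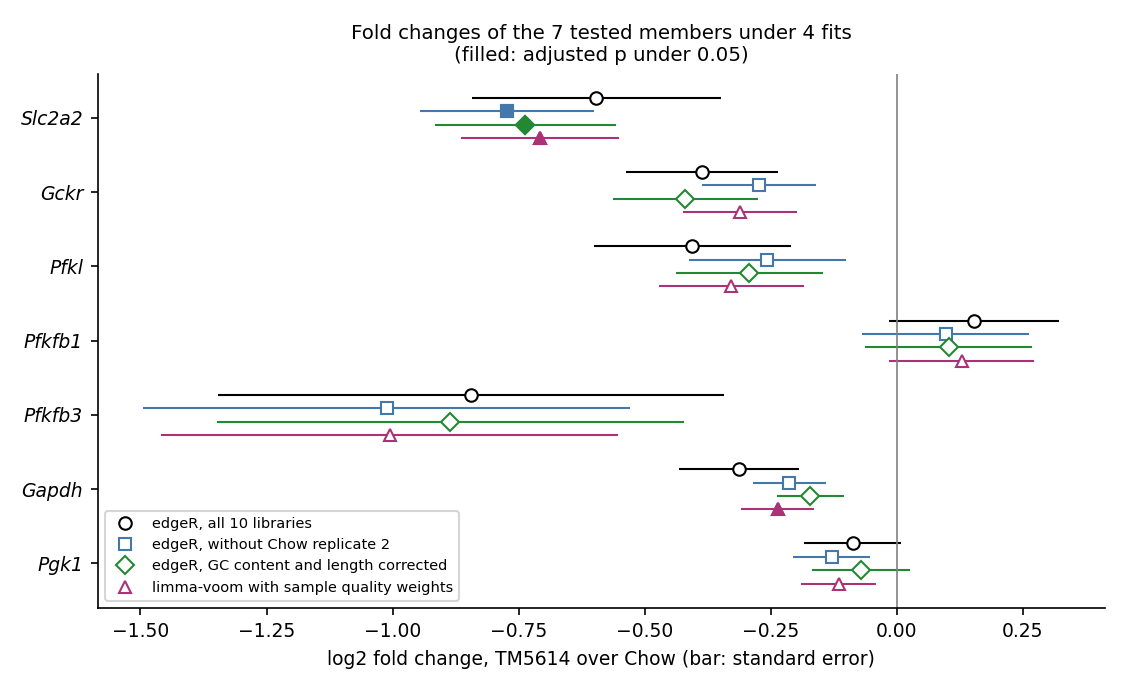
log2 fold change of TM5614 over Chow with its standard error (x axis) for the 7 tested genes (y axis) under 4 fits, filled where the adjusted p is under 0.05. Slc2a2 moved from −0.60 to between −0.77 and −0.71 in the other 3 fits, while Gapdh moved from −0.31 towards 0, to between −0.24 and −0.17.

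Gapdh was also the reference gene of the quantitative PCR in the study, so it was compared with 14 other genes in common use as references, among them Actb, Hprt and Tbp. Apart from RNA sequencing, the hepatic mRNA levels in the study's figures are from mice on a high-fat, high-sugar diet. Those mice received TM5614 for longer than 10 days or were heterozygous for PAI-1 deficiency. Bearing of the present comparison on that PCR was not tested. The log2 CPM of Gapdh minus the mean log2 CPM of the 14 was 1.26, 1.87, 1.29, 1.17 and 1.19 in Chow and 1.09, 1.17, 0.92, 0.79 and 1.00 in TM5614. All but 1 of the TM5614 values were below all Chow values, and TM5614 replicate 2 reached Chow replicate 4 at 1.17. The difference was −0.36, from 1.35 ± 0.29 to 1.00 ± 0.15 (SD, n = 5 each; the same exact permutation test, p = 0.0159). It was −0.23 without Chow replicate 2 (exact permutation p = 0.0238) and −0.21 after correction for GC content and length (exact permutation p = 0.0159), and −0.53 against Actb, Hprt and Tbp alone. The test was chosen with earlier results of these data known. Gapdh was also the 1 tested gene of the 8 with separate groups in CPM, so these p-values are not independent of that separation. Neither Gapdh nor any of the 14 reference genes was called by edgeR. Log2 fold changes of the 14 ran from −0.35 for Rplp0, a ribosomal protein, to 0.44 for Tfrc, the transferrin receptor. Ywhaz, Hprt and Ppia had a smaller unadjusted p than Gapdh (edgeR, 0.00551, 0.011 and 0.0201 against 0.0214). Groups were also separate in CPM for Hprt and Ywhaz, higher with TM5614, and for Ppia and B2m, lower with TM5614. Rplp0 was the only one of the 14 with a lower estimate than Gapdh.

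**Figure D3:**
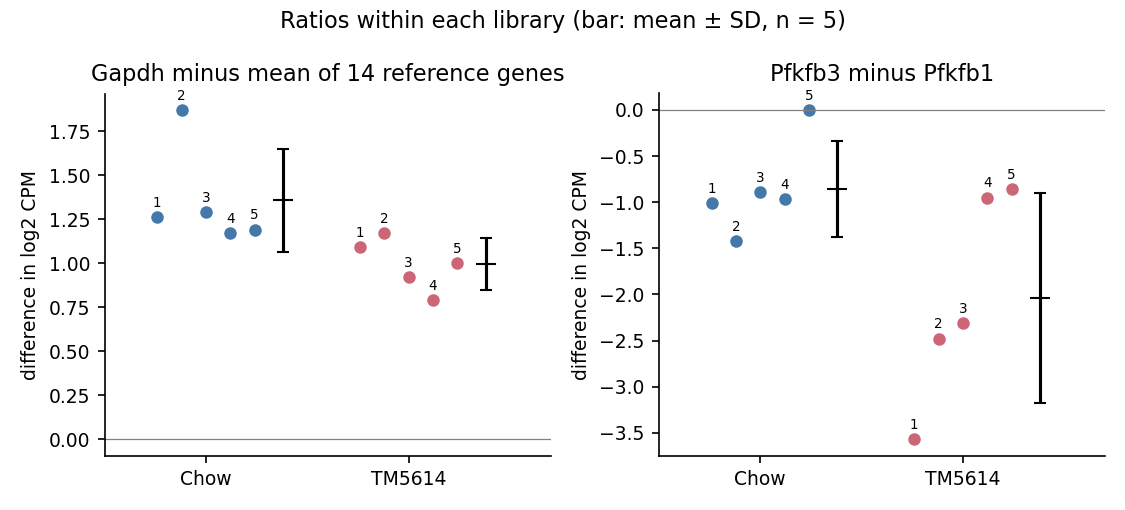
Differences in log2 CPM within each library (y axis), on the left Gapdh minus the mean of 14 reference genes and on the right Pfkfb3 minus Pfkfb1, for 5 Chow and 5 TM5614 libraries (points, numbered by replicate) with mean ± SD. On the left the highest value is 1.87 in Chow replicate 2 and the lowest 0.79 in TM5614 replicate 4, and on the right TM5614 replicates 1 to 3 lie below all Chow libraries.

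The study's primers for Gapdh are shown because they mark the part of the transcript on which that reference rests. Both fall in exon 3 of 7 of a GENCODE M21 transcript, in its coding sequence, and bound a stretch of 171 bases at positions 370 to 540. Since they share an exon, the product would be the same from genomic DNA and from spliced RNA. The pair also matched transcripts of 14 other genes, all of them predicted Gm loci.

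Gapdh forward: atgttccagtatgactccactcacg

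Gapdh reverse: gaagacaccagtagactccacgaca

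The sequence of Gapdh is widely copied in the mouse genome, which bears on how its reads can be assigned. Of the 1346 windows of 75 bases, the read length, along a Gapdh transcript, 1081 (80.3%) also occurred exactly in transcripts of 121 other genes. For Pgk1 the count was 1182 of 1751 (67.5%), nearly all shared with Pgk1-rs7, and for Eno1 1278 of 1953 (65.4%). Slc2a2, Gckr, Pfkl, Pfkfb1 and Pfkfb3 shared no window with another gene. How reads matching several genes were counted is not given in the sources used here, so the levels of Gapdh, Pgk1 and Eno1 are uncertain in that respect. Gapdh also overlaps the end of Iffo1 on the opposite strand, whose counts summed to 421, and Slc2a2 and Pfkfb3 overlap annotated antisense genes that were not analysed here.

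Pgk1 encodes phosphoglycerate kinase 1, which forms ATP from 1,3-bisphosphoglycerate (chrX:106187100-106203699, plus strand). It was at 78.0, 78.1, 92.3, 90.3 and 94.1 CPM in Chow and at 78.0, 78.5, 83.4, 82.0 and 85.4 CPM in TM5614. The ranges overlapped, and Pgk1 had the smallest difference and the smallest error of the 7 genes. The means were 86.6 ± 7.88 CPM and 81.5 ± 3.18 CPM (SD, 5 libraries each), −0.09 ± 0.10 apart on the log2 scale (SE; adjusted p = 0.624 by edgeR). Over all settings the estimate stayed between −0.13 and −0.04.

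Eno1, alpha-enolase (chr4:150236721-150248879, plus strand), had 1 count in Chow replicate 3 and 0 in each of the other 9 libraries. This is at or under a floor of 3 counts, so no fold change is given. In the coding sequence of Eno1, 900 of 1228 windows of 75 bases (73.3%) were identical in Eno1b, a near copy, and Eno1b itself had at most 1 count in any library. One such window, at positions 849 to 923 of the transcript, is shown because a read with these letters fits both genes equally.

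Eno1 and Eno1b: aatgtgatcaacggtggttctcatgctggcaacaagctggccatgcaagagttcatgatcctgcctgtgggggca

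Of the length-scaled counts of Eno1, Eno1b, Eno2 and Eno3 together, those of Eno3, the beta form of muscle, made up 91.8% ± 15.1 in Chow and 99.4% ± 1.14 in TM5614 (SD, n = 5). Eno2 made up as much as 34.4% in a Chow library, replicate 5, on 38 counts. Because the level of Eno1 is uncertain, these shares describe the reads counted and not the enolase of liver. Eno3 counts were 22 to 80 in Chow and rose to 626 in TM5614 replicate 2, the library with the most muscle transcripts, and its group difference did not pass (log2 fold change 2.16 ± 0.88 SE, edgeR adjusted p = 0.196). Aldoa, the aldolase of muscle, made up 2.40% ± 0.752 (SD, n = 5) of aldolase counts per kilobase in Chow, and its share reached 8.04% in TM5614 replicate 2, while the rest of that group had 1.82% to 2.15%.

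Per kilobase, the order of mean levels in Chow was Gapdh at 243 CPM, Slc2a2 at 129.7, Gckr at 64.6, Pgk1 at 47.4, Pfkfb1 at 14.97, Pfkl at 9.58, Pfkfb3 at 2.99 and Eno1 at 0.0118. The order in TM5614 was the same, from 196 CPM for Gapdh to 1.65 for Pfkfb3. In both groups the ranges of Slc2a2 and Gckr overlapped, as did those of Gckr and Pgk1, and in Chow also those of Pfkfb1 and Pfkl. All other neighbours in the order were separate. The overlap of Slc2a2 with Gckr in Chow came from replicate 2, in which Slc2a2 was below Gckr.

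Within groups the genes did not vary as 1 set. After each group's mean was subtracted, log2 CPM of Gckr and Gapdh correlated at r = 0.86 over the 10 libraries, Pfkl and Gapdh at 0.81, and Gckr and Pfkl at 0.77. Slc2a2 had negative values with all 3, −0.85 with Gapdh, −0.80 with Pfkl and −0.55 with Gckr, and Pfkfb3 and Pgk1 correlated at 0.70. Without Chow replicate 2 the values of Slc2a2 were −0.55 with Gapdh, −0.65 with Pfkl and −0.03 with Gckr, and those among Gckr, Pfkl and Gapdh were 0.60 to 0.75. These are descriptions over libraries that share depth and base composition. After correction for GC content and length the correlation of Gckr with Gapdh was 0.10, that of Pfkl with Gapdh −0.29 and that of Slc2a2 with Gapdh 0.49. Gckr with Pfkl (0.66), Slc2a2 with Pfkl (−0.63) and Pfkfb3 with Pgk1 (0.60) moved less.

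The genes most like each by the same measure, among tested genes with a mean of at least 50 counts, included Stard4 for Slc2a2 (r = 0.98), and were Ctsd and Prrg2 for Gapdh (0.99 and 0.99). For Gckr they were Rab40c and Slc4a2 (0.98 and 0.96), and for Pfkl Acot7 and Acy1 (0.98 and 0.97). Abhd15 and Gcn1l1 were closest to Pfkfb1 (0.91 and 0.91), Tmcc1 and Tsku to Pfkfb3 (0.94 and 0.93), and Ikbkap and Tob2 to Pgk1 (0.97 and 0.96). Without Chow replicate 2 these values were between 0.92 and 0.98. They were picked as the highest among all those genes, and values after correction for GC content and length are not given.

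Other genes of hepatic sugar metabolism did pass. Of 78 tested genes in 8 lists, which together with the untested ones hold 97, edgeR called 9 (11.5%), 3 higher and 6 lower, beside 4.50% of all genes tested, which is also the share to set beside the calls in the single lists that follow. The median log2 fold change of the 78 was 0.05. Among the 78 are 11 factors that bind or regulate glycolytic genes and 13 genes known to respond to hypoxia. All 8 lists were chosen with earlier results of these data known, so their shares of calls beside that of all genes are descriptive only. The count was 15 of 78 (19.2%) without Chow replicate 2, where 9.24% of all genes were called, and 7 without TM5614 replicate 2, the latter all among the 9, and 6 without TM5614 replicate 3 or TM5614 replicate 5. Without TM5614 replicate 2, 3 or 5 the calls over all genes were 373 of 11196, 235 of 11218 and 342 of 11193, beside 499 of 11092 with all libraries.

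**Figure D4:**
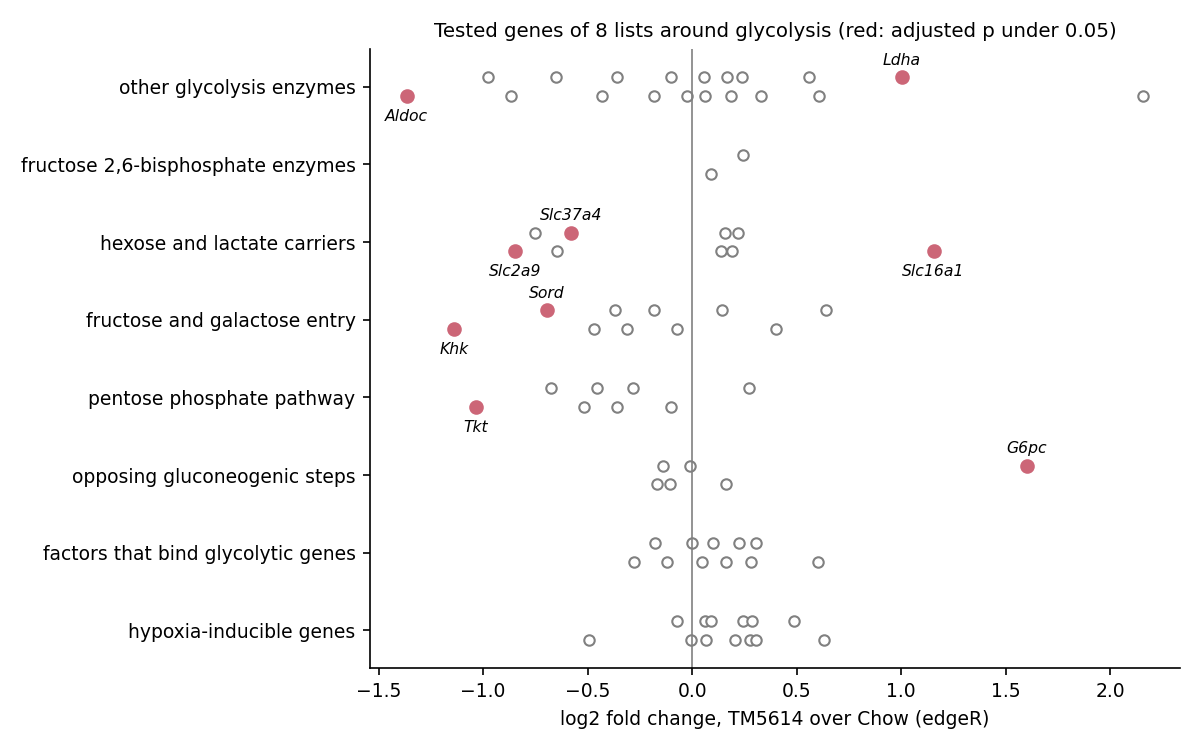
log2 fold change of TM5614 over Chow (x axis) of the 78 tested genes in 8 lists (y axis), red and named where the edgeR adjusted p is under 0.05. Red points lie at both ends, from Aldoc at −1.36 to G6pc at 1.60, and the open point furthest to the right is Eno3 at 2.16.

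Among 19 tested enzymes of glycolysis beyond the 8 genes, 1 rose and 1 fell (10.5% called, median log2 fold change 0.05). Ldha, which interconverts pyruvate and lactate, was at 562, 584, 664, 624 and 539.6 CPM in Chow and between 1073 and 1323 CPM in TM5614. Its groups were far apart, by 1.00 ± 0.11 on the log2 scale (SE; adjusted p = 0.000402 by edgeR). Aldoc, the aldolase best known from brain, ranged from 13.8 to 23.9 CPM in Chow and from 5.06 to 9.55 CPM in TM5614, also without overlap (log2 fold change −1.36 ± 0.19 SE, edgeR adjusted p = 0.00209). Both were called under every setting and with each library left out.

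Of 9 tested carriers of hexoses, pyruvate and lactate, 1 rose and 2 fell (33.3% called, beside 4.50% of all genes). Slc16a1, the monocarboxylate carrier MCT1 that moves lactate across the membrane, was at 39.6 to 62.9 CPM in Chow and 73.8 to 127 CPM in TM5614 (log2 fold change 1.16 ± 0.17 SE, edgeR adjusted p = 0.00266). Slc2a9, in the same family as Slc2a2, fell from 68.5 to 84.4 CPM to 38.8 to 51.3 CPM (log2 fold change −0.85 ± 0.11 SE, edgeR adjusted p = 0.00129). Both pairs of ranges were separate, and both calls held under every setting and leave-out. Slc37a4, the carrier of glucose 6-phosphate into the endoplasmic reticulum, was just past the threshold (log2 fold change −0.58 ± 0.15 SE, edgeR adjusted p = 0.0485), with overlapping groups, and lost the call in 5 of 10 other settings and 8 of 10 leave-outs.

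G6pc, the catalytic subunit of glucose-6-phosphatase, which acts in the same compartment and releases free glucose, was at 119 to 253 CPM in Chow and 375 to 726 CPM in TM5614. No TM5614 library reached down to the Chow range, and G6pc rose by 1.60 ± 0.22 on the log2 scale (SE; adjusted p = 0.00185 by edgeR). It was the only one of 6 genes of the steps that oppose glycolysis to be called.

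**Figure D5:**
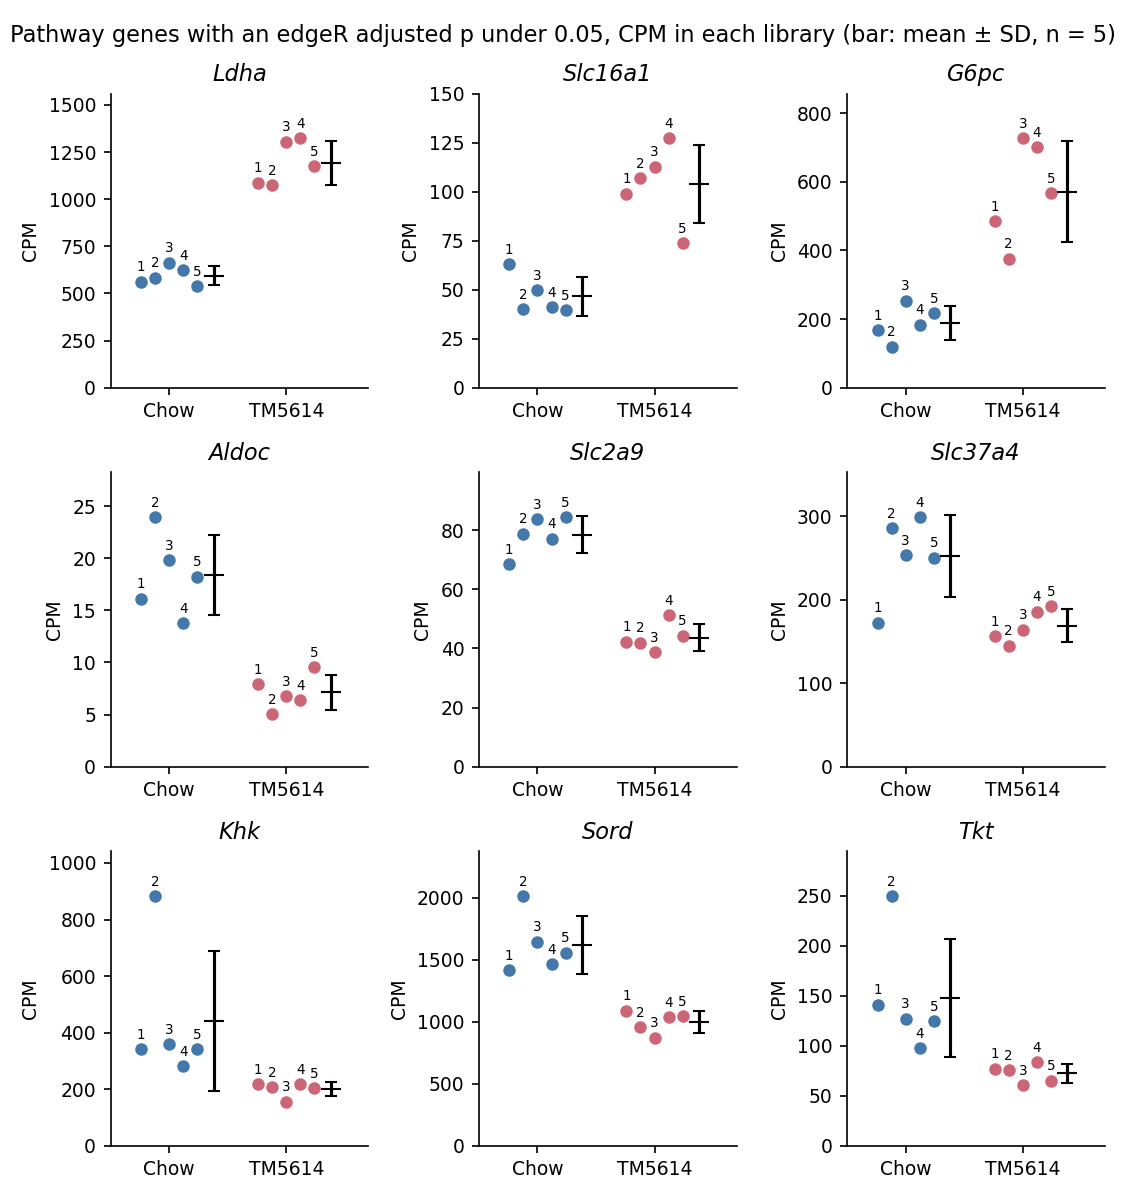
CPM (y axis, from 0) of the 9 called pathway genes in every library (points, numbered by replicate) with mean ± SD of 5 libraries. The groups are separate for all but Slc37a4, and Chow replicate 2 is the highest Chow library for Khk, Sord, Tkt and Aldoc.

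Genes for entry of fructose and for the pentose phosphate pathway gave only lower calls. Of 10 tested genes of fructose and galactose entry 2 fell (median log2 fold change −0.25): Khk, which phosphorylates fructose (−1.14 ± 0.28 SE, edgeR adjusted p = 0.0404), and Sord, which makes fructose from sorbitol (−0.70 ± 0.12 SE, edgeR adjusted p = 0.00627). Khk reached 882 CPM in Chow replicate 2 and 281 to 359 CPM in the other 4 Chow libraries, against 156 to 218 CPM in TM5614. Its estimate without Chow replicate 2 was −0.73 (edgeR adjusted p = 0.00131), while 6 of 10 leave-outs lost the call. Of 8 tested pentose phosphate genes Tkt, a transketolase that returns sugar phosphates to glycolysis, fell by 1.03 ± 0.22 on the log2 scale (SE, edgeR adjusted p = 0.0208) and lost the call without TM5614 replicate 3 or 5. Reads of Sord may be shared with the predicted gene Gm6652, which held 26.1% of its windows of 75 bases.

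No call was made among 11 factors that bind or regulate glycolytic genes (median log2 fold change 0.10) or among 13 tested genes known to respond to hypoxia (median 0.20, 10 of 13 estimates higher). In these the smallest p belonged to Txnip, a glucose-responsive inhibitor of thioredoxin (log2 fold change 0.60 ± 0.21 SE, edgeR adjusted p = 0.144), and to P4ha1, a collagen prolyl hydroxylase (0.63 ± 0.22 SE, edgeR adjusted p = 0.138). Of 11 pericentral markers Axin2 rose while Cyp1a2, Lect2, Rgn and Gulo fell (45.5% called, beside 4.50% of all genes), and of 10 periportal markers Cdh1 rose. The median log2 fold changes of those lists were −0.02 and 0.13, and these lists too were chosen with earlier results known.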

How the data were processed

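Poly(A) RNA libraries of 10 mouse livers, 5 Chow and 5 TM5614, were sequenced. Per the study's methods and the submitters' processing notes, STAR aligned the reads to mm10 and Illumina's RNA Express produced the gene counts. The notes also name HOMER. The annotation, tool versions, use of strand and treatment of reads that match several genes are not given in the sources used here. As deposited by the authors, these are raw whole-number counts under gene symbols, and every test rests on them. They also deposited FPKM values, counts scaled by gene length and library, from which gene lengths were taken. Regularised log2 values and the table of the authors' own DESeq2 comparison (fold changes, p-values and adjusted p-values) were not used.

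Groups and replicate numbers came from the sample titles, and columns were matched to samples by mouse number. Counts of the 20 within-group pairs of libraries differed by a chi-square of at least 8.00 per degree of freedom, so no library was taken for a repeat of another. Genes were filtered with filterByExpr, libraries were scaled by TMM, and TM5614 was compared with Chow by the quasi-likelihood test of edgeR 4.0.16 (R 4.3.3), two-sided and without a block. p-values of the 11092 genes were adjusted by Benjamini-Hochberg and called under 0.05. The log2 CPM behind ratios and correlations had a prior count of 2. Ratios within a library were compared by exact two-sided permutation. DESeq2 1.42.0, limma-voom (limma 3.58.1) with sample quality weights, other scalings and filters, a replicate block, robust dispersion, a correction for GC content and length (an offset per library from 2 splines of 5 degrees of freedom) and each library left out in turn were alternatives. The fits were tested on simulated counts with known changes.

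The members, lists and tests were chosen with earlier results of these data known. Named besides the members are the genes of each pathway list past the threshold, or the 1 of smallest p where none was, the leading isoenzymes, and the 2 genes most correlated with each member. Genes named outside this rule (Slc2a4, Pfkm, Aldoa, Eno2, Eno3, Eno1b and the reference genes) were picked after their values were seen. Some genes that the rule would name are counted but not reported here. Positions come from GENCODE M21 (GRCm38, the same assembly as mm10), and GC content from its transcripts, with both GC content and length for 96.7% of the tested genes. All promoters are from RefSeq. Precision follows the counts behind a value, and a gene with 3 counts or fewer in every library was treated as at the floor. The labels give no batch or time of collection.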

Additional observations from a re-analysis of the deposited data

Results flagged for a closer look

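In the Chow group Gapdh in replicate 2, at 469 CPM, lay far from the other 4 libraries, which were between 330.0 and 354 CPM. The same library was apart in log2 CPM of Gapdh minus the mean of 14 reference genes, at 1.87 against 1.17 to 1.29. In both cases the gap to the nearest library, as a share of the whole range of the group, exceeded Dixon's 95% critical value of 0.71 for 5 libraries. Of 18 groups of values examined these 2 exceeded it, where chance gives about 0.9. The 2 values share a library and a gene. It is the library in which GC content and length explained 50.6% of the deviation of its genes, and Gapdh has a GC content of 52.6%. After correction for both, log2 CPM of Gapdh was 8.41, 8.34, 8.48, 8.35 and 8.41 in Chow replicates 1 to 5, with replicate 2 the lowest. The difference between groups against the reference genes was then −0.21 in place of −0.36, with an exact permutation p of 0.0159 in each case. Why the library stood apart was not tested.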

How the results depend on the processing

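No estimate for the 7 tested genes reversed under any alternative. The number of genes called among all tested was 895 with DESeq2, 1386 with voom and 777 after correction for GC content and length, against 499, and 368 to 555 with the other scalings, filters, dispersion and block. With single libraries left out it ran from 235, without TM5614 replicate 3, to 1031, without Chow replicate 2. Of the 7 genes, 2 were called with voom (Slc2a2 and Gapdh) and 1 (Slc2a2) after the GC and length correction, and with single libraries left out 0 or 1, the 1 being Slc2a2 without Chow replicate 2. The labels do not say that a replicate number marks a shared origin, and the numbers were not taken to pair the libraries: same-numbered libraries correlated at 0.032, 0.32, 0.12, 0.032 and 0.25, not all over 0.1, and only Chow replicate 2 correlated best with its own number. With the replicate number as a block, 555 genes and none of the 7 members were called (Slc2a2 adjusted p = 0.0529), and Gapdh against the reference genes was −0.36 with an exact sign-flip p of 0.0625, the smallest that 5 pairs allow; the block left Pfkfb3 minus Pfkfb1 at −1.18 (exact p = 0.125). Left-out libraries moved the Gapdh difference between −0.40 and −0.23, with every exact p under the threshold, and that of Pfkfb3 minus Pfkfb1 between −1.47, the 1 below the threshold, and −0.79. The causes were not tested. Pfkfb3, with as few as 19 counts in a library, is the tested member whose counting error is largest, and Eno1 was at or under the floor of 3 counts.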
